A study of Mus musculus with 30 samples.

Results

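The genes described here encode the 4 classical groups of axon guidance cues and their receptors: semaphorins with plexins and neuropilins, ephrins with Eph receptors, Slits with Robos, and netrins with DCC and UNC5 proteins, together with the netrin-Gs. Members were chosen by gene symbol from the count table, where every gene has a total of at least 100 counts, and 68 of its 17477 genes met the rule. The rule itself used no expression value, but earlier results of these data were known when it was set. Of these 68 genes, 35 encode ligands and 33 encode receptors. Ntn3 is named in the rule, but no gene of the count table carried that symbol. RNA-seq was done on the hippocampus of adult C57 BL/6J mice that, after weaning, were either caged alone (social isolation, SI) or kept with cage mates (group housed, GH) until they were killed. There were 8 SI and 7 GH females (animals 41 to 79) and 7 SI and 8 GH males (animals 1 to 39), and each mouse gave 1 library. The labels and the study's methods name no transgene or drug, and housing was the only named condition in which SI and GH mice of a sex differed. Each label also ends in a letter and a digit whose meaning is not given. The digits were not spread evenly over the housing groups of either sex. The labels do not name the cages, so GH mice that shared a cage were tested as separate units.

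Guidance cues were first studied as signals that attract or repel the growing axon. Many of them stay expressed in the adult hippocampus, where ephrins and Eph receptors act between neurons and between astrocytes and dendritic spines, semaphorins act on spine and synapse number through plexins, and netrin-Gs on axons bind adhesion partners on dendrites. A ligand may sit on the membrane or be secreted, and most receptors act on the actin cytoskeleton through small GTPases. Several ligands, ephrin-Bs and membrane semaphorins among them, also signal back into the cell that carries them.

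All 68 genes had counts in every library and passed the filter on low counts in both sexes. Together they took from 0.213 to 0.438% of the counts of a library. Levels between genes were compared as normalized CPM per kilobase, that is, counts scaled to a common library size (CPM), divided by the length of the longest annotated transcript. On this scale the mean over 30 mice was highest for Sema6b, a transmembrane semaphorin that binds A-type plexins, at 55.2. It was followed by Efnb3 at 47.5, a transmembrane ephrin, and by Sema7a at 45.2, a semaphorin held to the membrane by a lipid anchor. The ranges over single mice overlapped, at 43.1 to 71.1 for Sema6b, 32.9 to 58.0 for Efnb3 and 28.2 to 56.3 for Sema7a. These genes were not compared within each mouse.

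**Figure D1:**
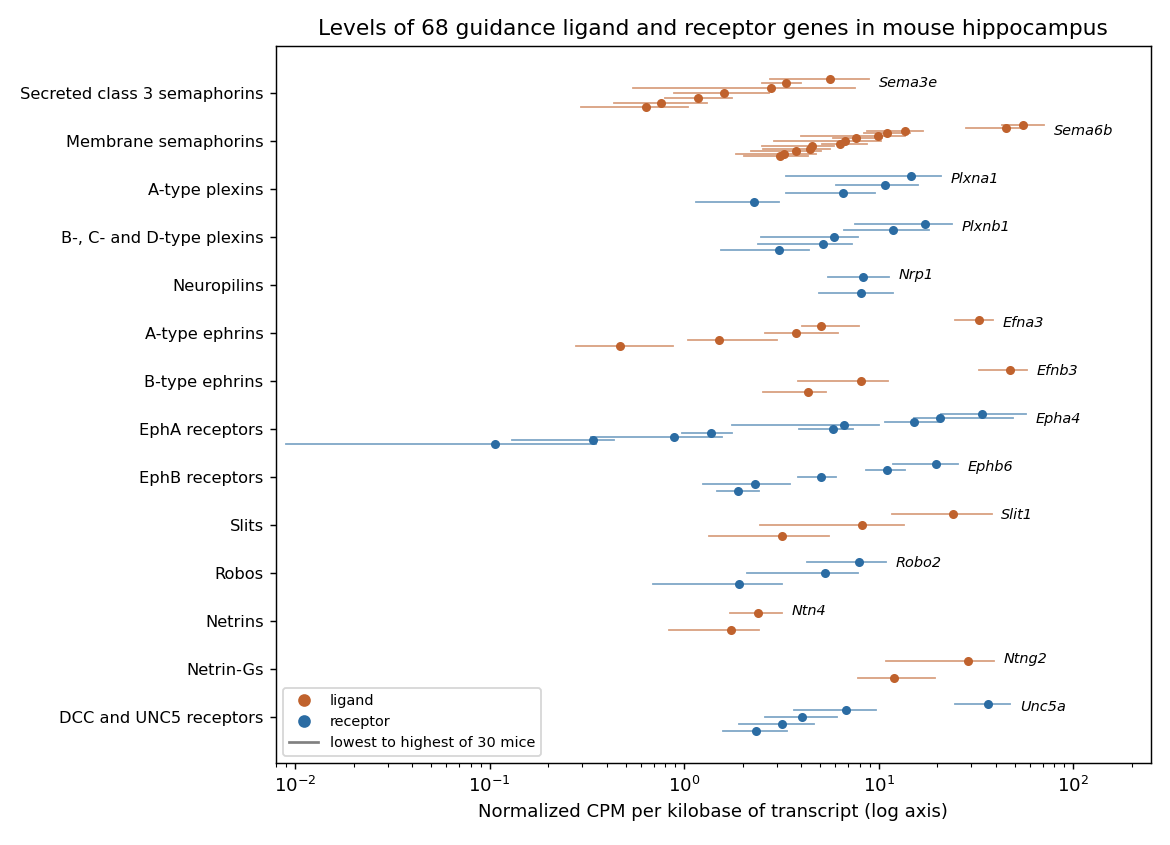
Mean level of each of the 68 genes over 30 mice in normalized CPM per kilobase of transcript (points, log axis) with the lowest and the highest mouse (lines), by family, ligands and receptors in different colours. The member with the highest mean of each family is named, and Sema6b lies furthest to the right at 55.2.

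In several families 1 member had a mean level well above the next. Among A-type ephrins, which are lipid-anchored ligands, Efna3 had a mean level of 32.8 per kilobase and the next, Efna2, 5.08. Among EphA receptors, the tyrosine kinases that bind them, the order was Epha4 at 34.1, Epha5 at 20.6 and Epha7 at 15.1, while Epha1 had only from 1 to 35 counts per library. Ephb6, an EphB receptor without kinase activity, led its family at 19.8. The secreted class 3 semaphorins were all low, from 0.640 for Sema3a to 5.63 for Sema3e. The membrane semaphorins ranged from 3.12 for Sema4c to the 55.2 of Sema6b.

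Receptors for semaphorins were present at intermediate levels. Plxnb1, a receptor for Sema4d, had a mean of 17.4 per kilobase, Plxna1, which forms complexes with neuropilins, 14.7, and the neuropilin Nrp2 8.09. Slit1 at 24.3 per kilobase was above its receptors Robo2 at 7.92 and Robo1 at 5.31. Secreted netrins were low, with 2.41 for Ntn4 and 1.74 for Ntn1, whereas Unc5a, a netrin receptor linked to repulsion, reached 36.5. The netrin-Gs, which bind LRR adhesion proteins and not DCC, had means of 28.9 for Ntng2 and 11.98 for Ntng1.

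Library totals ranged from 18809307 to 100844898 counts. Marker lists for dentate granule, CA1 and CA3 cells were detected in every library, with summed levels in normalized CPM from 294.3 to 491.3, from 509.9 to 808.4 and from 231.2 to 320.4. Markers of tissue next to the hippocampus were detected as well: the choroid plexus list (12 genes) summed to between 170.5 and 7279, the thalamus list (5 genes) to between 77.95 and 211.4 and the striatum list (6 genes) to between 91.46 and 189.0. Slc4a5 of the choroid plexus list was at 0 in 1 library, and no other marker was at 0 in any library. SI males 25, 33 and 39 stood apart over the whole transcriptome, and values without them are given with the results for males. In libraries of whole tissue, fewer cells of a type and less RNA per cell cannot be told apart.

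Females of the 2 housing groups were compared to ask which guidance genes differ after isolation. In SI females, 3 of the 68 genes were differentially expressed at an adjusted p under 0.05: the plexin Plxnb1 was lower, and the receptors Robo3 and Epha7 were higher. Over all 16026 genes tested 3.89% passed the same threshold, so the share among guidance genes was close to that of all genes. All 3 encode receptors, and 0 of the 35 ligands passed with edgeR. At an unadjusted p under 0.05 there were 6 of the 35 ligands and 7 of the 33 receptors. A difference between ligands and receptors was not tested. At the unadjusted threshold 13 of the 68 genes passed, 9 of them higher and 4 lower in SI, while 20.2% of all genes passed, 9.29% higher and 11% lower. The median Log2FC (SI minus GH, adjusted for surrogate variables) was 0.018 over the 68 genes and 0.0077 over all genes, with 37 of the 68 above 0.

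Plxnb1 (ENSMUSG00000053646) encodes the B-type plexin through which Sema4d acts on the small GTPases RhoA and R-Ras. In SI females its level was 129 to 164 normalized CPM with a median of 148, and in GH females 169 to 205 with a median of 181. Every SI female was below every GH female. Plxnb1 was the only 1 of the 68 genes whose female groups did not overlap, against 0.3% of all genes tested (0.187% with SI below and 0.112% with SI above GH). The Log2FC was -0.26 (SE 0.047, adjusted p 0.0085, edgeR).

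Of the 3 called genes, Plxnb1 alone passed with each of the 15 females left out in turn, with a Log2FC between -0.31 and -0.23. Without surrogate variables its Log2FC was -0.30 and the adjusted p 0.0821 (edgeR). In males the Log2FC was -0.29 (SE 0.099, adjusted p 0.313), with SI males at 65.4 to 164 CPM (median 106) and GH males at 144 to 174 (median 154). SI males 25, 33 and 39 were the lowest of these, at 65.4, 73.5 and 82.5 CPM, and without them the Log2FC was -0.059 (adjusted p 0.926, edgeR). The ligand Sema4d had a Log2FC of -0.060 in females (adjusted p 0.423) and of -0.020 in males (adjusted p 0.901), both by edgeR, and in males without the 3 mice it was -0.078 (adjusted p 0.834).

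**Figure D2:**
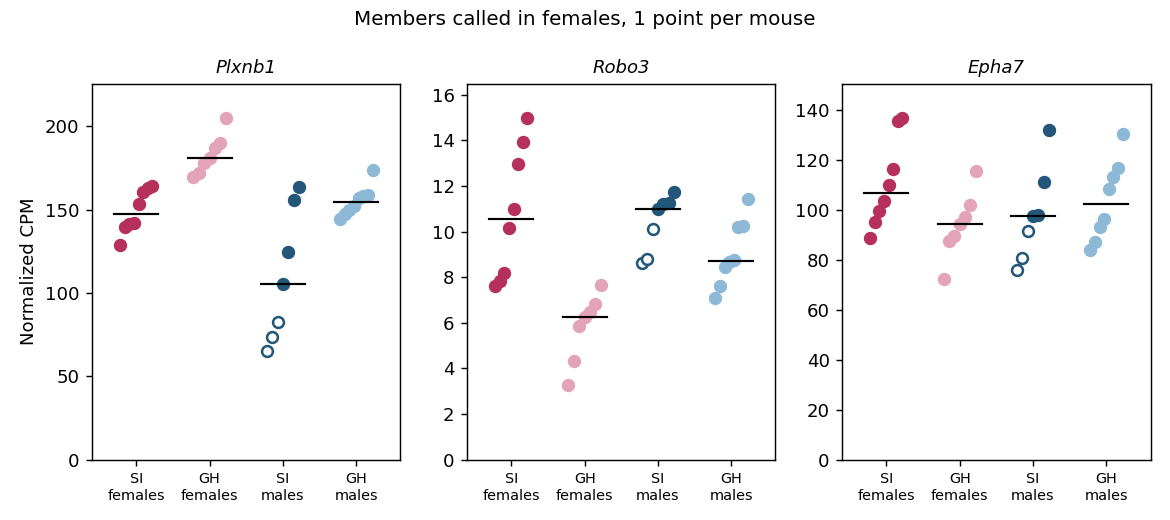
Normalized CPM of Plxnb1, Robo3 and Epha7 in each mouse (points) with the group median (line), for SI and GH mice of both sexes, where open points are SI males 25, 33 and 39. For Plxnb1 all SI females, at 129 to 164, lie below all GH females, at 169 to 205, whereas the groups overlap for Robo3 and Epha7.

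Robo3 (ENSMUSG00000032128) encodes the divergent Robo receptor known for its part in the crossing of the midline by commissural axons, and in mammals it does not bind Slits with high affinity. Its level was low, with 120 to 1466 counts per library. SI females had 7.63 to 14.98 normalized CPM (median 10.6), and GH females had 3.27 to 7.66 (median 6.26). 7 of the 8 SI females exceeded the highest GH female, and the remaining SI female was within the GH range. The Log2FC of 0.84 (SE 0.18, adjusted p 0.0193, edgeR) was the highest of the 68 genes in females.

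The call of Robo3 was lost without SI female 63 (adjusted p 0.0509, edgeR), SI female 68 (0.0988) or GH female 54 (0.0542), where the Log2FC was 0.84, 0.67 and 0.82. In males, SI mice had 8.62 to 11.7 CPM (median 11) and GH mice 7.08 to 11.4 (median 8.69), and the Log2FC was 0.31 (SE 0.11, adjusted p 0.312, edgeR). Without SI males 25, 33 and 39 it was 0.32 (adjusted p 0.748). The other Robo receptors gave small values in females, 0.037 for Robo2 and 0.020 for Robo1. Of their ligands, Slit1 had a Log2FC of 0.11 (adjusted p 0.223), Slit2 of -0.077 (0.548) and Slit3 of -0.049 (0.693) in females by edgeR.

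Epha7 (ENSMUSG00000028289) encodes a receptor tyrosine kinase for ephrin-As. SI females had 88.7 to 137 normalized CPM (median 107), and GH females 72.4 to 116 (median 94.5). The groups overlapped, with 3 SI females above all GH females. The Log2FC was 0.23 (SE 0.054, adjusted p 0.0249, edgeR). In males it was 0.093 (SE 0.092, adjusted p 0.672), with SI males at 75.9 to 132 CPM and GH males at 84.0 to 130, and without SI males 25, 33 and 39 it was 0.049 (adjusted p 0.943, edgeR). The value in males turned negative in some alternative fits given in the closing section.

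The call of Epha7 rested on single mice more than that of Plxnb1. It was lost without SI females 45 (adjusted p 0.0873, edgeR), 49 (0.0553), 63 (0.0858) or 68 (0.0828), or without GH females 48 (0.0627) or 54 (0.0593), with a Log2FC between 0.19 and 0.24. Of the 5 ephrin-A ligands of this receptor none passed an unadjusted p of 0.05 in females. Their Log2FC ran from -0.26 for Efna4, which had 11 to 84 counts per library, to 0.071 for Efna2.

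The female calls depended on surrogate variables, which are covariates estimated from the counts themselves. Without them 0 of the 68 genes and 0 genes in all passed with edgeR. 6 of the 68 were at an unadjusted p under 0.05, and the share of all genes at that threshold is not given. The Log2FC of the 3 genes named above kept its sign at -0.30, 0.89 and 0.24. DESeq2 with the same surrogate variables called these 3 and Plxnb2.

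Sequence around the annotated start of the 3 called genes is shown because these are the members whose transcript level differed. The windows of 300 bases are from RefSeq on GRCm38.p6, and lie mostly upstream of the start. They were found for 58 of the 68 genes. Plxna4, Plxna1, Dcc, Unc5d, Sema6a, Sema3f, Slit1, Efnb3, Sema3b and Ntn1 had no entry. Capitals mark the GC box, searched as GGGCGG and its reverse complement CCGCCC.
Plxnb1, chr9:109095186-109095485, plus strand: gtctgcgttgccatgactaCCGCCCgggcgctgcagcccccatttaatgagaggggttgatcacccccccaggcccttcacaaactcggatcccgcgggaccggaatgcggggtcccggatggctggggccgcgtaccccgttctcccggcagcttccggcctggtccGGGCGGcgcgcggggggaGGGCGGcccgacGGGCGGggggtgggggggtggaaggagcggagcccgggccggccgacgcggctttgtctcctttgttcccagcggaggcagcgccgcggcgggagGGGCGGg
Epha7, chr4:28812881-28813180, plus strand: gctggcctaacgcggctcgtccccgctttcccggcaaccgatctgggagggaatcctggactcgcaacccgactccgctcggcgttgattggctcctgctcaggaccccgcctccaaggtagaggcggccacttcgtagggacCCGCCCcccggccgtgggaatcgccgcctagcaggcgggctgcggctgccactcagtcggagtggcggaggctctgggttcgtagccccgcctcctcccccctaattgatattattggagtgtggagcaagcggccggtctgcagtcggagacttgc
Robo3, chr9:37433126-37433425, minus strand: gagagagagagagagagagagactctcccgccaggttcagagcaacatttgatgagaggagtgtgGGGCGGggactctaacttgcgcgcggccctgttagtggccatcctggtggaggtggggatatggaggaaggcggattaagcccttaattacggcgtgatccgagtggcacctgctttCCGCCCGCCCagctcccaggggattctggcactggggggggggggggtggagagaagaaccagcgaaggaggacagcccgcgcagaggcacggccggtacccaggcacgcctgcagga
The Plxnb1 window held 5 GC boxes and 36 CG dinucleotides, the Robo3 window 3 boxes, of which a pair overlap, and 17 CG dinucleotides, and this Epha7 window, the first of 2 listed for that gene, 1 box and 28 CG dinucleotides.

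The motif was counted in the same way over all members with a window. The GC box was in 53 of 74 windows (71.6%, 44 of the 58 genes) and in 35.7% of all 32851 windows of the table. The median number of CG dinucleotides was 20 in the windows of these genes and 7 in all windows. The TATAAA sequence, searched on both strands as TATAAA and TTTATA, was in 2 of the 74 windows (2.7%) and in 13.6% of all windows. The palindrome TGACGTCA, the cAMP response element, was in 1 window of the group and in 1.79% of all. Shares over the genes tested here alone are not given, so these values do not set guidance genes apart from other expressed genes. A match describes the letters and not the binding of a factor.

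None of the other 4 plexins of the B, C and D types passed in females. 3 of these 4 had a Log2FC below 0, and over all genes tested 52.8% were above 0. Plxnb2, a receptor for class 4 semaphorins, had 62.5 to 103 normalized CPM in SI females (median 80.4) and 69.0 to 119 in GH females (median 85.2). The groups overlapped almost wholly, and the Log2FC of -0.13 (SE 0.042) did not pass (adjusted p 0.0971, edgeR). Plxnd1, the receptor of Sema3e, had a Log2FC of -0.16 (adjusted p 0.433, edgeR). Plxnb3 alone of the 4 was above 0, at 0.13 (adjusted p 0.494, edgeR).

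Of the 9 EphA receptors, 8 had a positive Log2FC in females, with a median of 0.11, and Epha7 alone passed. Epha10, an Eph receptor without kinase activity, had 24.5 to 34.6 normalized CPM in SI females (median 29.2) and 23.3 to 28.8 in GH females (median 25.6). 4 SI females exceeded all GH females, and the Log2FC was 0.19 (SE 0.067, adjusted p 0.113, edgeR). It passed without GH female 78, at a Log2FC of 0.24 (adjusted p 0.0206, edgeR). Epha4, the most abundant EphA receptor, had 177 to 325 CPM in SI females and 133 to 263 in GH females, with a Log2FC of 0.15 (adjusted p 0.249, edgeR). Among EphB receptors the Log2FC was 0.017 for Ephb6 and 0.16 for Ephb2, the latter with an adjusted p of 0.237 (edgeR).

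Semaphorins were represented by Sema7a and Sema3e among the 5 remaining genes with the smallest p in females. Sema7a, which signals through Plxnc1 and integrins, had 139.8 to 177 normalized CPM in SI females (median 156) and 134 to 149.5 in GH females (median 141). 5 of the 8 SI females were above all GH females, and the Log2FC was 0.13 (SE 0.046, adjusted p 0.128, edgeR). Sema3e had 32.4 to 52.9 CPM in SI and 25.4 to 42.1 in GH females, with a Log2FC of 0.16 (adjusted p 0.182, edgeR). Sema6b, the most abundant semaphorin, had 187 to 238 CPM in SI and 186 to 249.6 in GH females, with a Log2FC of -0.037 (adjusted p 0.649, edgeR).

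Netrins and netrin-Gs all had negative values in females, and none passed. Ntn1, the secreted ligand of DCC and UNC5 receptors, had 7.45 to 11.2 normalized CPM in SI females (median 10.8) and 9.17 to 14.3 in GH females (median 10.9), with a Log2FC of -0.17 (SE 0.065, adjusted p 0.157, edgeR). Ntng2 had 45.2 to 59.0 CPM in SI and 52.8 to 63.02 in GH females, and 4 SI females had less than any GH female. Its Log2FC was -0.11 (adjusted p 0.235, edgeR). The most abundant members of the remaining families differed little: the Log2FC in females was 0.025 for Efna3, -0.089 for Efnb3, 0.0057 for Unc5a, -0.091 for Ntn4, 0.023 for Nrp1 and -0.039 for Plxna1, with adjusted p-values from 0.248 to 0.972 (edgeR).

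**Figure D3:**
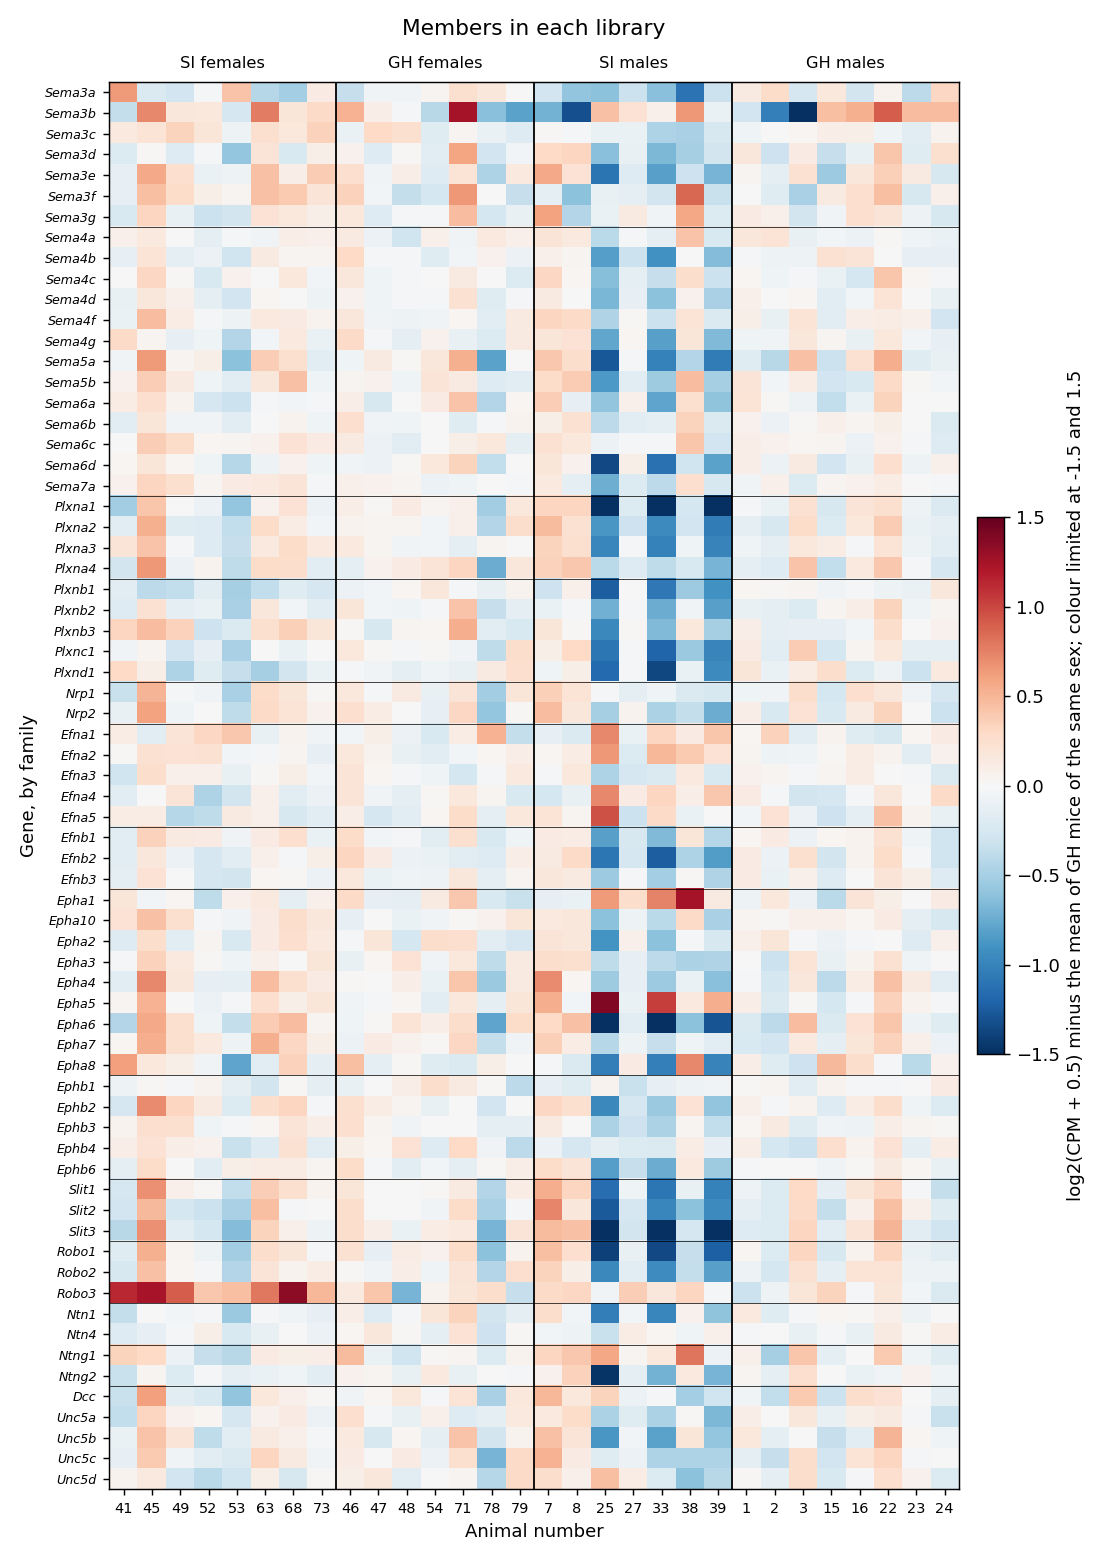
Each of the 68 genes (by family, top to bottom) in each of the 30 libraries (columns), coloured by log2(CPM + 0.5) minus the mean of the GH mice of the same sex and limited at the ends of the colour scale. Robo3 is above the GH mean in all SI females, and SI males 25, 33 and 39 are blue in most rows, with 49, 48 and 48 of the 68 genes below the lowest GH male.

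Males were compared in the same way, and 0 of the 68 genes and 0 of the 15833 genes tested (0.00%) passed an adjusted p of 0.05 with edgeR. At an unadjusted p under 0.05 there were 10 of the 68 genes, 5 higher and 5 lower, against 13.0% of all genes (5.63% higher and 7.38% lower). DESeq2 with the same surrogate variables called 0 of the 68 genes and 44 of all genes (0.278%), with 10 of the 68 again at an unadjusted p under 0.05. The share of all genes at that unadjusted threshold with DESeq2 is not given. The male groups overlapped for all 68 genes, and 0.0568% of all genes did not overlap (0.0253% with SI below and 0.0316% with SI above GH). The median Log2FC was 0.013 over the 68 genes and -0.0020 over all genes. The sign was shared by females and males for 41 of the 68 genes (60.3%), and for 59.0% of all 15770 genes tested in both sexes.

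SI males 25, 33 and 39 carried low levels of many guidance genes. In mouse 25, 49 of the 68 genes were below the lowest GH male, and in mice 33 and 39 each 48 were, whereas the other SI males had from 1 to 19. SI male 7 was shifted the opposite way, with 29 of the 68 genes above the highest GH male, where 17.0% of all genes were. Over all genes 40.4, 38.7 and 36.1% were below the lowest GH male in mice 25, 33 and 39, and from 8.26 to 24.8% in the other SI males. 42 of the 68 genes were below in all 3, against 30.5% of all genes tested, and 3 were above the highest GH male in all 3: the ephrins Efna2 and Efna4 and the receptor Epha5 (28.1% of all genes tested were above in all 3). Epha5 had 90.7 to 254 normalized CPM in SI males and 80.5 to 122.9 in GH males, with a Log2FC of 0.26 (SE 0.15, adjusted p 0.46, edgeR), and without these mice the Log2FC was 0.055 (adjusted p 0.934). The 42 included Slit1, Slit2 and Slit3, Robo1 and Robo2, all 4 A-type plexins and all 5 plexins of the B, C and D types. Plxna1 was at 30.05, 39.6 and 50.9 normalized CPM in mice 25, 33 and 39 and at 123 to 172 in GH males.

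Transcript length moved with this pattern. The median transcript length was 5762.5 bases for the 42 genes below and 4213 for the other 26, and the median over the 68 genes was 4731 against 3015 over the genes tested in females that had a length. The part of transcript length in the levels of these 3 mice was not tested. In fits without surrogate variables, 13 of the 68 genes had a positive Log2FC with these 3 mice (19.1%, median -0.16), and 49 without them (72.1%, median 0.077), while over all genes 50.1 and 50.4% were positive. Neither of these fits called any of the 68 genes with edgeR, and 9 and 8 were at an unadjusted p under 0.05. With surrogate variables and without the 3 mice 0 of the 68 genes passed with edgeR, and 4 were at an unadjusted p under 0.05. The shares of all genes at the unadjusted threshold are not given for these fits, so the counts were not set against them.

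**Figure D4:**
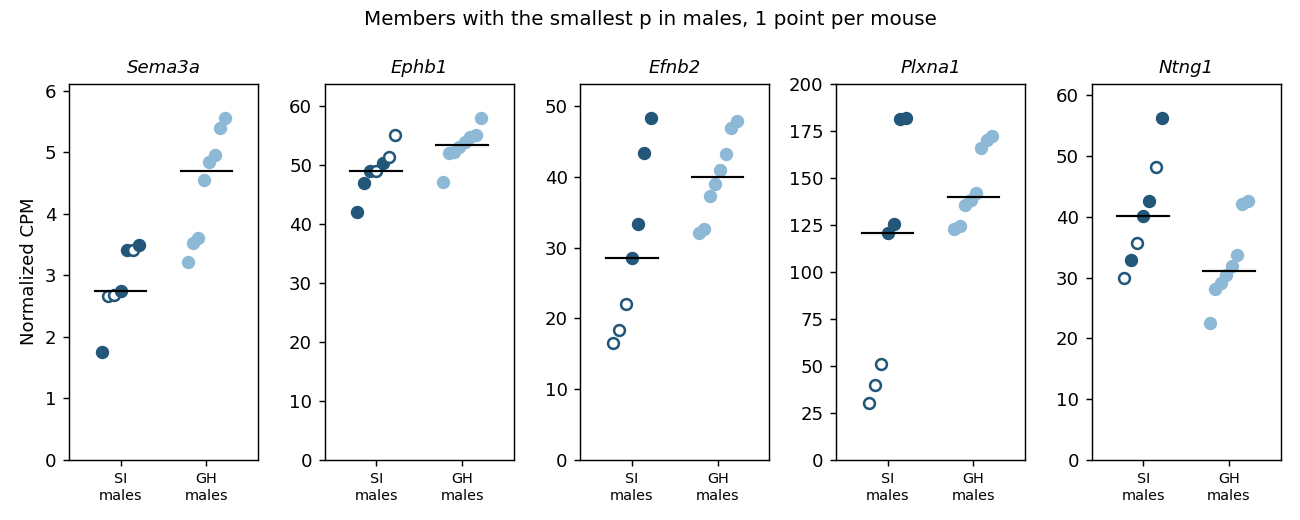
Normalized CPM of the 5 genes with the smallest p in males beside Plxnb1 and Robo3, in each SI and GH male (points) with the group median (line), where open points are SI males 25, 33 and 39. These mice are the lowest 3 for Efnb2 and Plxna1, while for Sema3a 4 of the 7 SI males, among them only 2 of the open points, lie below the lowest GH male.

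Sema3a, the secreted semaphorin that repels axons through Nrp1 and A-type plexins, had the lowest Log2FC of the 68 genes in males. SI males had 1.76 to 3.50 normalized CPM (median 2.75) and GH males 3.21 to 5.56 (median 4.69). 4 of the 7 SI males were below all GH males, and the lowest was animal 38. The Log2FC was -0.62 (SE 0.18) and did not pass (adjusted p 0.295, edgeR). Without SI males 25, 33 and 39 it was -0.41 (adjusted p 0.818). In females it was -0.043 (SE 0.14, adjusted p 0.904), and the counts behind it were 50 to 339 per library.

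Neuropilin-1 and the A-type plexins form the receptor of Sema3a. Nrp1 had a Log2FC of 0.014 (SE 0.098) in males and of -0.034 without SI males 25, 33 and 39, with 42.5 to 64.6 normalized CPM in SI and 41.7 to 60.3 in GH males. Plxna1 had 30.05 to 182 CPM in SI males (median 121) and 123 to 172 in GH males (median 140), and a Log2FC of -0.13 (SE 0.053, adjusted p 0.344, edgeR). Without SI males 25, 33 and 39 the Log2FC of Plxna1 was -0.060 (adjusted p 0.903, edgeR), and with them but without surrogate variables it was -0.49 (SE 0.33).

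Ephrin-B signalling was represented by Ephb1 and its ligand Efnb2. Ephb1 had 42.0 to 55.2 normalized CPM in SI males (median 49.03) and 47.1 to 58.1 in GH males (median 53.5), and the Log2FC was -0.16 (SE 0.060, adjusted p 0.333, edgeR). Efnb2 had 16.6 to 48.4 CPM in SI males (median 28.5) and 32.1 to 47.99 in GH males (median 40.0), with a Log2FC of -0.19 (SE 0.073, adjusted p 0.337, edgeR). For Efnb2 4 SI males were below the lowest GH male, 3 of them the mice 25, 33 and 39. Without those 3 mice the Log2FC was -0.21 for Ephb1 (adjusted p 0.693) and -0.19 for Efnb2 (adjusted p 0.681), both by edgeR.

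Ntng1, the lipid-anchored netrin-G that binds LRRC4C, was higher by value in SI males. SI males had 30.01 to 56.3 normalized CPM (median 40.1) and GH males 22.6 to 42.6 (median 31.2), with 2 SI males above the highest GH male. The Log2FC was 0.40 (SE 0.16, adjusted p 0.345, edgeR), and in females it was -0.021 (SE 0.091, adjusted p 0.930). Without SI males 25, 33 and 39 the value in males was 0.10 (adjusted p 0.943), and 0.40 when surrogate variables were left out as well (adjusted p 0.994, edgeR). The thalamus list was also higher by value in SI males. 4 of its 5 genes were higher at an unadjusted p under 0.05, where 5.63% of all genes were. The median Log2FC of the list was 0.48, and its summed level was 78.2 to 198.1 in SI and 77.95 to 101.2 in GH males. Fitted values of the list without SI males 25, 33 and 39 are not given. SI males 38 and 25, with the highest Ntng1 at 56.3 and 48.1, also had the highest sums of this list at 198.1 and 145.8. Other males went the other way: SI male 27 had the next sum, 129.0, with 32.8 CPM of Ntng1, and SI male 8 had the lowest SI sum, 78.2, with 42.6 CPM. The part of thalamic tissue in the difference was not tested.

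The abundant members of the other families showed small differences in males. The Log2FC was 0.11 for Sema6b, -0.018 for Efna3, 0.028 for Efnb3, -0.021 for Unc5a, 0.11 for Epha4, 0.015 for Ephb6, 0.011 for Ntn4, -0.087 for Robo2 and 0.058 for Slit1. None of these had an adjusted p under 0.543 (edgeR). Without SI males 25, 33 and 39 the Log2FC of these genes was -0.062, -0.15, -0.010, -0.11, 0.046, -0.11, 0.052, -0.024 and 0.050 in the same order, so that the sign turned for Sema6b, Efnb3 and Ephb6. The highest fitted value in males, 0.96 for Epha1, had an SE of 0.44 and rested on at most 35 counts per library, and was 0.47 (SE 0.53) without these mice.

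The single mouse that most altered the male result was SI male 27. Without it 6 of the 67 genes that were then tested passed with edgeR, beside 15.3% of all genes: Plxnb1, Sema3a, Efnb2, Plxna1 and Plxnc1 were lower and Efna2 was higher. The Log2FC was then -0.47 for Plxnb1 (adjusted p 0.0046, edgeR) and -0.71 for Sema3a (adjusted p 0.0232).

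**Figure D5:**
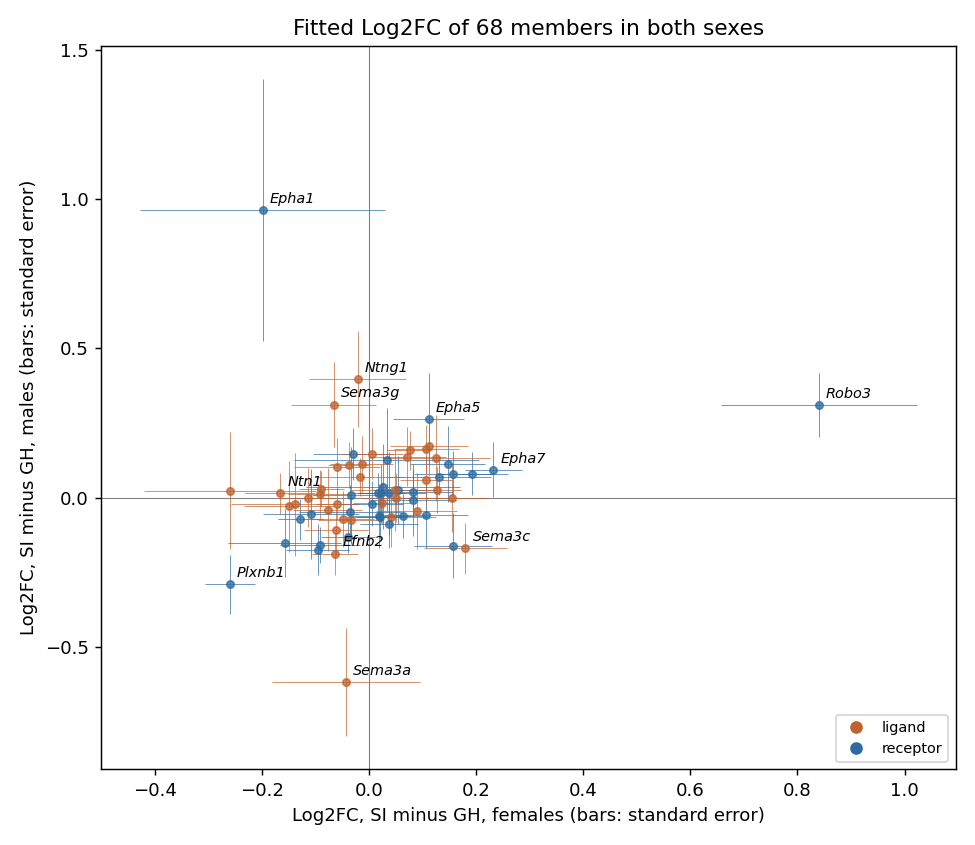
Log2FC of SI minus GH in females (x axis) and in males (y axis) for each of the 68 genes with standard errors as bars, ligands and receptors in different colours. Plxnb1 is below 0 on both axes at -0.26 and -0.29, Robo3 lies far to the right at 0.84 and 0.31, and most other genes lie near 0 on both axes.

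Whether housing acted differently in the sexes was tested with an interaction of sex and housing over all 30 mice. For 0 of the 68 genes and for 0 of 16391 genes did this term pass with edgeR, and 6 of the 68 were at an unadjusted p under 0.05, against 7.75% of all genes. The smallest p among these genes was that of Ntn1, with a Log2FC that was higher in males than in females by 0.26 (SE 0.095, adjusted p 0.561, edgeR). Sema3c, a secreted semaphorin, came next at -0.28 (SE 0.11, adjusted p 0.575), with single-sex values of 0.18 in females and -0.17 in males. Robo3 had -0.57 (SE 0.23, adjusted p 0.577), so its larger value in females was not shown to differ from that in males. Levels of Sema3c overlapped in both sexes, at 16.2 to 21.9 normalized CPM in SI and 14.9 to 21.2 in GH females and at 13.8 to 19.7 in SI and 17.3 to 20.9 in GH males, and without SI males 25, 33 and 39 its Log2FC in males was -0.047.

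Inside the cell the guidance receptors act through a shared set of adaptors, GTPase regulators, kinases and co-receptors, and a list of 61 such genes was read from the same fits. In females 2 of the 61 passed, both lower in SI, where 2.93% of all genes passed in that direction. Dock1, a Rac activator that acts downstream of DCC, had 31.0 to 41.5 normalized CPM in SI females and 36.8 to 51.8 in GH females, with a Log2FC of -0.21 (SE 0.051, adjusted p 0.0343, edgeR). Rras, the small GTPase inactivated by plexins, had 10.6 to 13.2 CPM in SI and 12.4 to 17.2 in GH females, with a Log2FC of -0.21 (SE 0.056, adjusted p 0.0493, edgeR). For both genes the groups overlapped. At an unadjusted p under 0.05 there were 15 of the 61 genes in females, 5 higher and 10 lower, near the 20.2% of all genes (9.29% higher and 11% lower).

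In males 0 of the 61 partner genes passed with edgeR, and 9 were at an unadjusted p under 0.05, 2 higher and 7 lower, near the 13.0% of all genes (5.63% higher and 7.38% lower). Dock1 had a Log2FC of -0.28 in males (adjusted p 0.311) and Rras of 0.047 (adjusted p 0.843), both by edgeR. Without SI males 25, 33 and 39 these were -0.068 (adjusted p 0.928) and -0.057 (adjusted p 0.950), so that the sign of Rras turned. The median Log2FC of the list was 0.0038 in females and -0.030 in males.

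Markers of astrocytes, which also express guidance genes, differed with housing in females. Of the 10 astrocyte genes 4 were lower in SI females at an adjusted p under 0.05 (Slc1a2, Slc1a3, Aldh1l1 and S100b) and 9 at an unadjusted p under 0.05, where 2.93 and 11% of all genes were lower at these thresholds, and the list had a median Log2FC of -0.21. Its summed level was 3811 to 5295 normalized CPM in SI females and 4517 to 6240 in GH females, and no gene of it was at 0. In males the sums were 3006 to 5083 in SI and 4238 to 5743 in GH mice, and 0 genes of the list passed with edgeR, with 2 lower at an unadjusted p under 0.05. The order of the females by this sum was close to their order by Plxnb1, but not the same. The lowest sum, 3811, was in SI female 45 with 139.5 CPM of Plxnb1. SI females 63 (4210 and 141.7) and 49 (4391 and 142.0) were also low in both. The highest sum, 6240, was in GH female 54 with 205.1 CPM. GH females 48 (6192 and 186.8) and 79 (5948 and 189.9) were also high in both. GH female 46 departed from this order, with a sum of 4517 and 171.9 CPM of Plxnb1. That level was above those of SI females 52 (5295 and 164.1), 41 (5052 and 162.9) and 73 (4877 and 153.4). In males the lowest sum, 3006, and the lowest Plxnb1, 65.36, were both in SI male 25. The highest sum, 5743, and the highest Plxnb1, 173.9, were both in GH male 24. The lowest Plxnb1 of the females, 129.1, was in SI female 53 with a sum of 4452. The part of astrocyte content in the difference of Plxnb1 was not tested. Flt1 of 8 endothelial genes and Npy of 8 interneuron genes were higher in SI females at an adjusted p under 0.05 (edgeR), where 0.961% of all genes were. At an unadjusted p under 0.05, 4 endothelial and 2 interneuron genes were higher in SI females, where 9.29% of all genes were. 0 genes of the choroid plexus, oligodendrocyte, microglia, dentate, CA1, CA3, thalamus and striatum lists passed in either sex with edgeR. Each of these lists had 0 to 3 genes at an unadjusted p under 0.05 in females and 0 to 4 in males. Of all genes 20.2% were at that threshold in females and 13.0% in males.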

How the data were processed

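Per the labels and the study's methods, RNA of the hippocampus of 30 mice was sequenced. The methods name an extraction of total RNA and no selection step. The authors trimmed reads with Trimmomatic 0.39, quantified them with Salmon 1.8.0 and deposited their whole-number gene counts in 1 table, without normalization. The submitters' processing notes name GRCm39 (mm39). The annotation release is not given in the sources used here. Every gene has a total of at least 100 counts. Symbols matched 16439 IDs (94.06%), and transcript lengths (GENCODE vM1, NCBIM37) 15964, among them all 68 members.

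Counts were analysed in R 4.3.3 with edgeR 4.0.16 within each sex: filterByExpr (minimum count 10, minimum total 15), TMM, surrogate variables of svaseq (sva 3.50.0, 20 permutations, seed 1; 3 in females, 2 in males, 4 in the interaction), glmQLFTest, and Benjamini-Hochberg adjustment over all genes with a threshold of 0.05. SE is the Log2FC divided by the root of F. CPM values are TMM-normalized and not adjusted for surrogate variables. Alternatives included DESeq2 1.42.0. Steps were tested on simulated counts that held no hidden factor and no outlying library. Such a simulation cannot show how well surrogate variables remove one. Its limit on false calls was not applied to DESeq2. Sequences are RefSeq's.

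Genes named in full were those called in either sex, the 5 others with the smallest p in each sex, the most abundant per kilobase of each family, the 3 with the smallest interaction p, and called partner genes. Members and lists were chosen with earlier results of these data known. Epha1, Plxnd1, Plxnb3, Plxnc1, Ephb2, Sema4d and others given beside them were named after their values were seen. Reads of genes that overlap a neighbour, such as Epha1, could be counted for either.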

Additional observations from a re-analysis of the deposited data

Results flagged for a closer look

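The 25 named genes were examined in 4 groups each (100 groups) for a mouse far from the others of its group by Dixon's criterion, which chance meets in about 1 in 20 groups, and 5 were found. GH female 78 was the lowest of its group for Plxna1, at 97.7 normalized CPM where the next mouse had 142, and for Slit1, at 94.8 where the next had 127.5. GH female 46 was the highest for Ntng1 at 44.3, with the next at 33.03. GH male 24 was the lowest for Efna3 at 69.5, with the next at 80.1. SI male 7 was the highest for Epha4 at 363.6, with the next at 228.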

How the results depend on the processing

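In females 3 of the 68 genes passed in the reported fit. The count was 3 or 4 with DESeq2, DESeq2's size factors, no filter, or at least 10 counts in every library, 6 with the trend on transcript length and GC removed (Epha10, Plxnb2 and Sema3e added), and 0 without surrogate variables, with the last digit of the sample label as a factor in their place, and with surrogate variables from counts that were not normalized, an alternative added after seeing the data (6, 6 and 2 of the 68 at an unadjusted p under 0.05, edgeR). The shares of all genes at that unadjusted threshold are not given. Leaving out 1 female gave 1 to 5: 1 without GH female 54, SI female 63 or SI female 68 (Plxnb1), and 5 without GH female 78. Over all genes 624 passed in the reported fit, 1262 with DESeq2, 1519 with the trend removed and 0 in the 3 fits that gave 0. In males 0 of the 68 passed in the reported fit and in every alternative but 2: 10 (9 lower) with surrogate variables from counts that were not normalized, where 13.1% of all genes passed, and 6 without SI male 27. Leaving out 1 male gave 0 to 6. The interaction gave 0 in both of its alternatives. Epha7 in males turned from 0.093 to -0.078 without surrogate variables, -0.074 with the label digit, -0.046 with surrogate variables from counts that were not normalized and -0.018 without SI male 7, with -0.018 to 0.14 over the males left out in turn. Plxna1 in males turned from -0.13 to 0.062 without SI males 25, 33 and 39 and without surrogate variables, an added alternative, to 0.0022 without SI male 33 and to 0.013 without SI male 25, with -0.39 to 0.013 over the males left out in turn. For the 3 called genes no other sign changed in either sex. For the 5 genes with the smallest p of a sex, no other sign changed in that sex. They were not followed over all fits in the other sex. Of the 5 in females, Sema7a and Epha10 had a Log2FC of 0.024 and 0.080 in males. Without SI males 25, 33 and 39 these turned to -0.073 and -0.024. The causes were not tested. No paired analysis was possible because no animal number occurs in more than 1 group. Precision is set by the spread between mice, and Epha1, with 1 to 35 counts per library, had the widest error of the 68 genes in females (SE 0.23) and in males (SE 0.44).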

Other observations

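Sema3b, a secreted semaphorin of class 3, was chosen here after its values were seen, because it was low in the libraries where the choroid plexus list was low. The summed choroid plexus level was 170.5 to 365.6 normalized CPM in SI males 7 and 8 and GH males 1, 2 and 3, and Sema3b was at 1.79 to 4.88 in the same mice. In the other 10 males the list summed to between 2091 and 4780 and Sema3b to between 5.63 and 11.8, and there Sema3b did not follow the sum: SI male 25 (4780) had 8.40 and SI male 33 (4380) 6.41, while GH male 22 (2982) had 11.8 and SI male 38 (2774) 9.80. In females GH female 71 had the highest sum, 7279, and the highest Sema3b, 24.9, while GH female 79 had the lowest of both, 1307 and 5.64. Housing groups overlapped in both measures. The Log2FC of Sema3b was 0.048 (SE 0.082) in females and 0.025 (SE 0.13) in males (-0.024 without SI males 25, 33 and 39), with adjusted p-values of 0.798 and 0.956 (edgeR).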
